A study of Mus musculus with 6 samples.

Results

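The genes described here are 41 genes of autophagy, the route by which a cell encloses its own cytoplasm in a double membrane, the autophagosome, and delivers it to the lysosome. They were taken from a fixed list by gene symbol. No measured value entered that rule, but earlier results of these data were known when the list was chosen. All 41 were found among the 55401 Ensembl genes of the deposited table. Cultures that the labels call female germline stem cells (FGSCs), from C57BL/6 mice and past passage 20, were compared without treatment and after 24 h in 1 μM metformin, a biguanide used against diabetes, with 3 libraries per group. The study's methods describe a single FGSC line, grown on mitotically inactivated STO fibroblast feeder cells, and the medium held serum, LIF, EGF, basic FGF and GDNF. No label says whether the repeats were separate cultures, so the p-values below measure the spread between these libraries. The question was which genes change their RNA level with metformin, and here it was asked of the autophagy machinery.

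Autophagy begins with a kinase complex around ULK1, which AMPK stimulates and mTORC1 restrains. A lipid kinase complex around Beclin 1 and VPS34 then marks the growing membrane with PI3P, and WIPI proteins, ATG2 and ATG9 bring in lipid. A pair of conjugation systems attaches proteins of the ATG8 family, LC3 and GABARAP, to that membrane, and receptors such as p62 bind both ATG8 proteins and the cargo to be degraded. Metformin is known as an indirect activator of AMPK. RNA levels of these genes do not measure the flow of material through the pathway.

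Levels were deposited as FPKM, fragment counts scaled to gene length and to library size. The depth was not stated and was estimated at 13400000 to 14000000 fragments per library from the step that 1 fragment makes in short genes, so that 3 fragments on 1 kb, taken as the floor, were worth 0.214 to 0.224 FPKM (counting error only). Of 8 blood cell markers, all 8 had a mean of at least 1 FPKM, whereas none of 6 germ cell markers and none of 10 fibroblast markers did, and Dazl, Pou5f1 and Dppa3 were listed at 0 in every library. Of the germ cell markers, Ifitm3 was above the floor, at 0.32 to 1.32 FPKM over the 6 libraries. The study itself reported all 6 germ cell markers by RT-PCR, and MVH, the product of Ddx4, by immunofluorescence. In these RNA values the labelled cell type was not borne out by its defining markers, and the cultures are called by their label without a cell type of their own. Summed over their lists, blood cell markers ranged from 395 to 401 FPKM in the control group and from 401 to 415 with metformin, and mast cell markers from 474 to 505 and from 450 to 465 (Cpa3 and Kit carried almost all of it, and Fcer1a, Tpsb2 and Mcpt4 were listed at 0). The groups did not overlap in either sum, but single markers went different ways. Among mast cell markers Cpa3 had 366 ± 16.9 FPKM in the control group and 338 ± 9.40 with metformin, without overlap (SD, n = 3 each), and Kit had 116 to 118 and 117 to 119 FPKM. Among blood cell markers Coro1a and Laptm5 were above the control range in every metformin library, Ptprc was below it in every one, and the other 5 overlapped. Of all genes tested below, 8.89% lay above the control range in this way and 8.1% below it. In limma the adjusted p was 0.471 for Coro1a, 0.472 for Laptm5, 0.488 for Ptprc and 0.369 for Cpa3. The part of these markers in the values below was not tested, and in bulk RNA fewer cells of a type cannot be told apart from less RNA per cell.

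No autophagy gene changed significantly with metformin. Of the 41 genes, 38 had a mean of at least 1 FPKM and were tested, and 0 of them had an adjusted p under 0.05 (limma on log2(FPKM + 1), Benjamini-Hochberg over the 10661 genes tested), where 0.0281% of all tested genes did. Atg4c, Map1lc3a and Optn were below that level in both groups. The lowest adjusted p of any tested autophagy gene was 0.392 in limma. At an unadjusted p under 0.05, 1 autophagy gene was higher with metformin, where 6.03% of all tested genes were, and 1 was lower, where 4.81% of all were. With 1 of 38 genes counted in each direction, neither count stands above the background share.

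The differences were small as well as not significant. Over the 38 tested genes the log2 fold change ran from -0.10 to 0.12, with 20 genes higher, 18 lower and a median of 0.01, against a median of 0.0041 over all tested genes. The median size of the difference was 0.05 on the log2 scale for the autophagy genes and 0.05 for all genes. The 95% intervals of the single genes, which are not adjusted for the number of genes, reached from -0.31 at the lowest to 0.31 at the highest. A change beyond 0.809-fold or 1.24-fold on the scale of FPKM + 1 thus lay outside the interval of every tested autophagy gene. The scale of FPKM + 1 understates changes of genes with low FPKM.

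**Figure D1:**
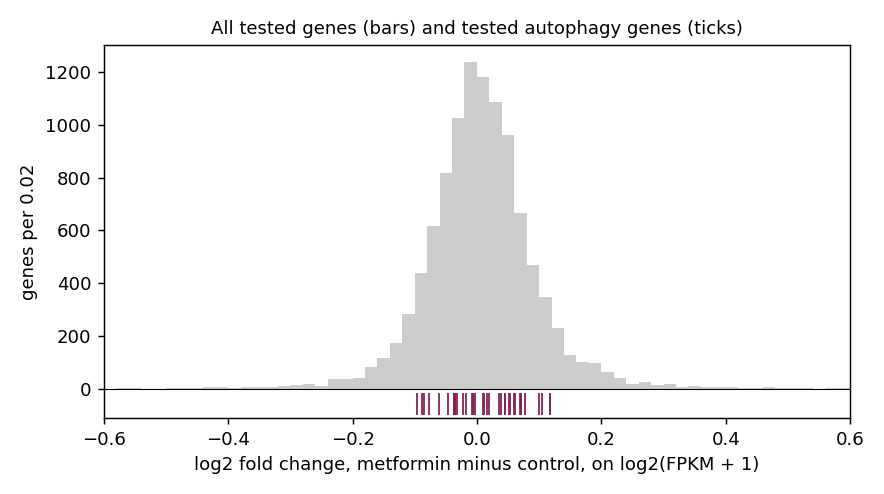
Histogram of the log2 fold change (metformin minus control, on log2(FPKM + 1), in bins of 0.02) of all tested genes, with a tick under the axis for each of the 38 tested autophagy genes; 72 genes beyond -0.6 or 0.6 are outside the plot. The ticks lie between -0.10 and 0.12, around the middle of the histogram.

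In the same libraries, 4 genes of the integrated stress response, picked with earlier results of these data known, had larger differences. Trib3, Chac1 and Ddit3 ranked 1, 2 and 3 by p in limma among the 10661 genes tested. They are thus the top of these same data and give no independent sign of that response. Trib3, which encodes a pseudokinase, had 6.56 ± 0.318 FPKM in the control group and 16.0 ± 0.334 with metformin, and Ddit3, which encodes the transcription factor CHOP, had 7.33 ± 0.435 and 12.9 ± 0.531 (SD, n = 3 each). Both rose, with an adjusted p of 0.000127 for Trib3 and 0.00453 for Ddit3 in limma. Atf4, which encodes the factor upstream of both, had 204 ± 3.59 FPKM in the control group and 231 ± 8.30 with metformin (SD, n = 3 each), and its log2 fold change was 0.18 (adjusted p = 0.243 in limma). ATF4 and CHOP are known to act on autophagy genes when amino acids run short, and 12 of the 41 genes were listed for this from general knowledge, namely Atg3, Atg5, Atg7, Atg10, Atg12, Atg16l1, Becn1, Gabarap, Gabarapl2, Map1lc3b, Nbr1 and Sqstm1. Of these 12, 8 were higher and 4 lower with metformin, with a median log2 fold change of 0.02 and 0 past the adjusted threshold in limma. Of all 10661 tested genes, 5580 were higher. The highest upper bound among their 95% intervals was 0.29, that of Atg10, which had a mean of 1.29 FPKM. The log2 fold change of Ddit3 was 0.74 (95% interval 0.62 to 0.86). Whether ATF4 or CHOP acted on these 12 genes was not tested.

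**Figure D2:**
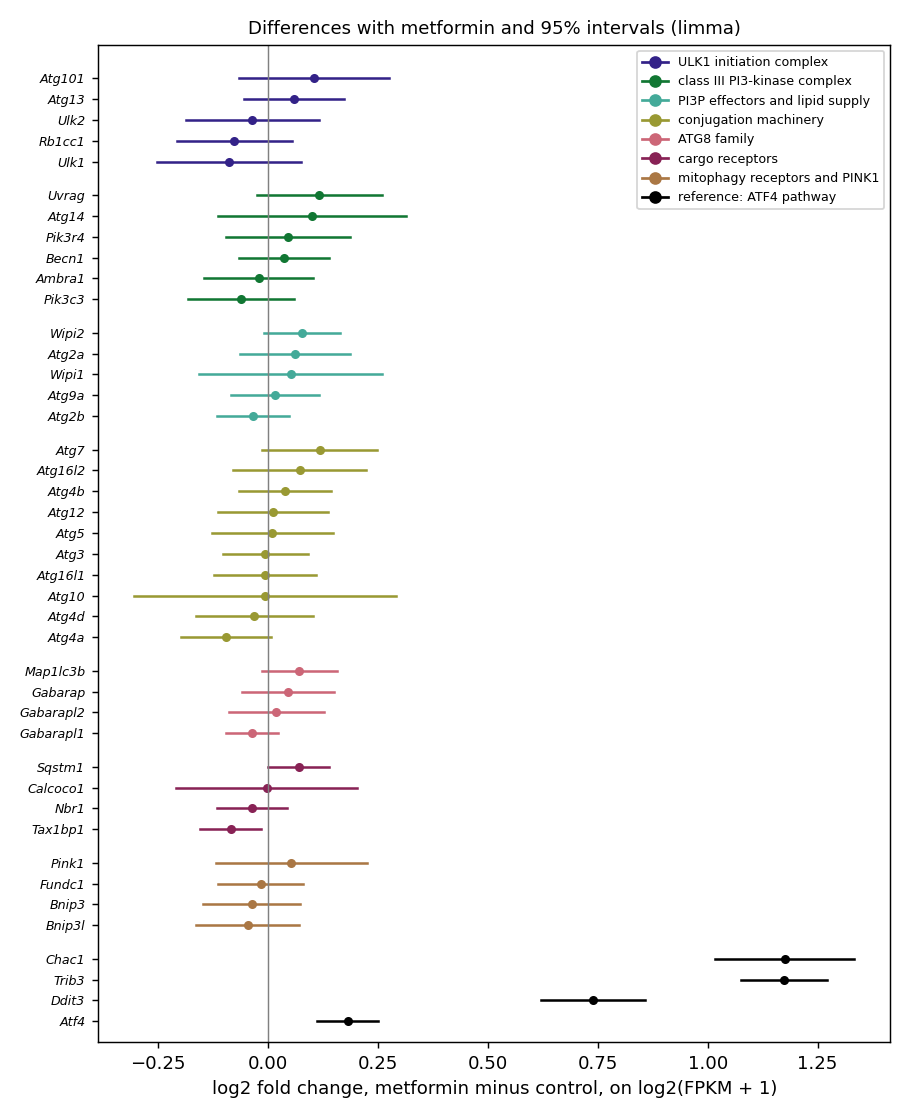
Log2 fold change (metformin minus control, on log2(FPKM + 1)) of each tested autophagy gene with its 95% interval from limma, coloured by role, and of 4 genes of the ATF4 pathway in black. The intervals of the autophagy genes stay between -0.31 and 0.31, and those of Ddit3, Trib3 and Chac1 begin at 0.62 or above.

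The cargo receptors held both genes with an unadjusted p under 0.05. Sqstm1 encodes p62, which carries ubiquitinated proteins into autophagosomes and is itself degraded there. The gene (GRCm38 chr11:50199366-50210827, minus strand) was the highest of all 41, at percentile 94.99 of the tested genes by mean FPKM. Its FPKM was 89.7, 89.9 and 94.2 in control repeats 1 to 3 and 98.4, 95.9 and 93.3 in metformin repeats 1 to 3. Metformin repeat 3 lay below control repeat 3, so the groups overlapped. In limma the log2 fold change of Sqstm1 was 0.07 ± 0.03 (standard error) and the adjusted p = 0.458, and the metformin mean was 1.05 times the control mean. The antisense gene 3010026O09Rik, at 3.10 FPKM over the 6 libraries, shares 750 bp with it.

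Tax1bp1 encodes another ubiquitin-binding receptor, known for clearing protein aggregates. Its position is GRCm38 chr6:52713729-52766780, plus strand. Its FPKM was 52.7, 54.6 and 51.8 in the control libraries and 49.0, 49.6 and 51.2 with metformin. Every metformin library was below every control library, by 0.59 FPKM at the closest. In limma the log2 fold change of Tax1bp1 was -0.09 ± 0.03 (standard error) and the adjusted p = 0.392, and the metformin mean was 0.942 times the control mean.

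The other receptors had slightly lower means with metformin. Nbr1, a relative of p62 that binds the same kind of cargo, had 9.98 ± 0.195 FPKM in the control group and 9.71 ± 0.146 with metformin (SD, n = 3 each). Calcoco1, a receptor for endoplasmic reticulum and Golgi membrane, had 1.18 ± 0.0777 and 1.17 ± 0.131 FPKM. Optn, which encodes optineurin, a receptor of damaged mitochondria and bacteria, had 0.46 to 0.85 FPKM over the 6 libraries and was not tested. In the order Sqstm1, Tax1bp1, Nbr1, Calcoco1 and Optn, no neighbours overlapped in their range over the 6 libraries, so the order was the same in each library. Their summed FPKM was 156 ± 1.96 in the control group and 157 ± 1.57 with metformin (SD, n = 3 each), while Sqstm1 made up 58.3%, 57.3% and 59.7% of it in the control libraries and 61.9%, 61.1% and 59.9% with metformin. The ratio of Sqstm1 to Tax1bp1 within a library, looked at after both values were seen, was 1.70, 1.65 and 1.82 in the control libraries and 2.01, 1.93 and 1.82 with metformin. The groups did not overlap in this ratio, by 0.00359 at the closest, between the repeats 3, and scaling between libraries does not enter it. Of 9 such ratios computed between related genes, 3 did not overlap between the groups (also Sqstm1 to Nbr1 and Atg2b to Atg2a) and the other 6 did. Some of these ratios share a gene, so they are not separate observations. In FPKM, 17.0% of all tested genes did not overlap in either direction, and no such background was computed for ratios.

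Among the other genes, those whose groups did not overlap were counted without a model. With metformin, 3 of the 38 tested autophagy genes had every library above the control range, or 7.89%, where 8.89% of all tested genes did. In the other direction 3 of 38 lay below it, again 7.89%, where 8.1% of all did. The genes above were Wipi2, Map1lc3b and Uvrag, and those below were Tax1bp1, Atg4a and Rb1cc1. For each of the 6 the two-sided exact permutation test gave p = 0.1, and no smaller value is possible with 3 libraries in each group.

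**Figure D3:**
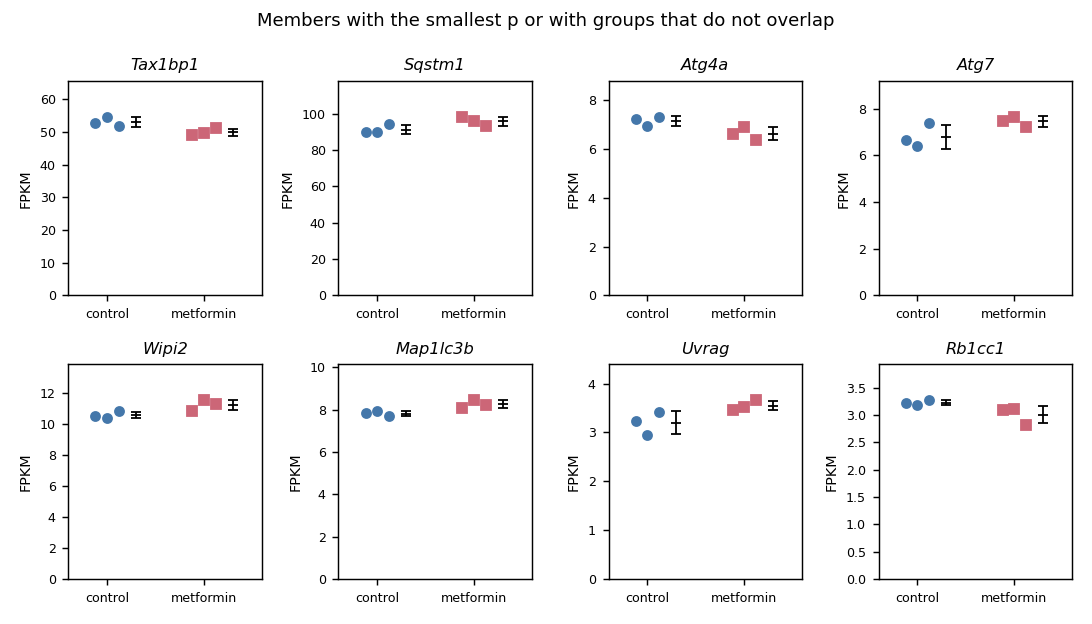
FPKM in each library of the 8 autophagy genes with the smallest p or with groups that did not overlap (circles for control, squares for metformin, bars for mean ± SD, n = 3 each, axes from 0). The differences between the groups are small beside the level of each gene, and for Sqstm1 and Atg7 the groups overlap.

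In the initiation complex, Atg101 and Atg13, which encode the regulatory subunits that hold the kinase complex together, were higher in FPKM than the kinases. Atg101 had 12.6 ± 0.562 FPKM in the control group and 12.9, 15.4 and 12.8 in the metformin libraries, and Atg13 had 8.73 ± 0.311 and 9.14 ± 0.495 (SD, n = 3 each). The kinase genes Ulk2 and Ulk1 had 4.89 ± 0.244 and 3.65 ± 0.246 FPKM in the control group and 4.75 ± 0.392 and 3.38 ± 0.283 with metformin. Ulk2 was above Ulk1 in 6 of 6 libraries, with ranges that did not overlap. Rb1cc1, which encodes the scaffold FIP200, had 3.21, 3.18 and 3.27 FPKM in the control libraries and 3.09, 3.10 and 2.82 with metformin. All metformin libraries were below the control range, and in limma the log2 difference was -0.08 ± 0.06 (standard error) with an adjusted p = 0.655, or -0.04 without metformin repeat 3. Of the 5 genes of the complex, 2 were higher and 3 lower.

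The lipid kinase complex was led by Becn1, which encodes Beclin 1, with 17.4 ± 0.447 FPKM in the control group and 17.9 ± 0.958 with metformin (SD, n = 3 each). Pik3c3, which encodes the lipid kinase VPS34, had 12.5 to 14.5 FPKM over the 6 libraries, and Ambra1, a regulator of Beclin 1, had 9.54 ± 0.690 and 9.37 ± 0.205. Pik3r4, which encodes the VPS15 subunit, had 3.27 to 3.81 FPKM over the 6 libraries. Beclin 1 works either with ATG14, which directs the complex to new autophagosomes, or with UVRAG, which serves endosomes and the fusion step. Uvrag had 3.23, 2.95 and 3.42 FPKM in the control libraries and 3.46, 3.53 and 3.66 with metformin (log2 fold change 0.12 ± 0.06, standard error, adjusted p = 0.528 in limma). The metformin libraries were all above the control range, by 0.04 FPKM at the closest, and the log2 fold change was 0.07 without control repeat 2. Atg14 was the lowest of the complex, with 2.11 ± 0.0651 FPKM in the control group and 2.34 ± 0.370 with metformin, and its 95% interval of -0.11 to 0.31 was among the widest. Uvrag was above Atg14 in 6 of 6 libraries.

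Of the genes that bind PI3P or supply lipid, 4 were higher and 1 lower. Wipi2, the PI3P-binding protein that recruits ATG16L1, had 10.54, 10.38 and 10.81 FPKM in the control libraries and 10.85, 11.53 and 11.26 with metformin. Its lowest metformin library exceeded its highest control library by 0.04 FPKM, and the log2 fold change was 0.08 ± 0.04 (standard error, adjusted p = 0.496 in limma). Its relative Wipi1 had 2.74 ± 0.358 and 2.87 ± 0.255 FPKM (SD, n = 3 each), so that Wipi2 was the higher of the pair in each library. The lipid transfer genes Atg2b and Atg2a had 8.96 ± 0.185 and 4.12 ± 0.215 FPKM in the control group and 8.72 ± 0.0900 and 4.34 ± 0.153 with metformin. Atg9a, which encodes a lipid scramblase of the vesicles that seed the membrane, had 4.93 to 5.14 FPKM over the 6 libraries. Atg2b shares 383 bp with the antisense gene 4933433P14Rik (4.87 FPKM), and Atg9a shares 46 bp with Ankzf1. How the authors' counting treated strand is not given in the sources used here, so fragments of such pairs could be shared.

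The conjugation machinery comprised 11 genes, of which 10 were tested, with 5 higher and 5 lower. Atg3, which encodes the enzyme that joins ATG8 proteins to lipid, was the highest, with 25.1 ± 1.35 FPKM in the control group and 25.0 ± 0.348 with metformin (SD, n = 3 each). Atg7, the activating enzyme shared by both conjugation systems, had 6.66, 6.39 and 7.38 FPKM in the control libraries and 7.50, 7.66 and 7.22 with metformin. Control repeat 3 lay above metformin repeat 3, and the log2 fold change of Atg7 was 0.12 ± 0.06 (standard error, adjusted p = 0.496 in limma). Atg5 and Atg12, whose products are joined to each other, had 8.85 ± 0.407 and 5.11 ± 0.215 FPKM in the control group and 8.93 ± 0.678 and 5.16 ± 0.286 with metformin. Atg10, the enzyme that joins them, was near the filter, with 0.93 to 1.52 FPKM over the 6 libraries, and had the lowest lower bound of all tested genes of the list. Atg16l1, their membrane partner, had 4.42 ± 0.192 and 4.39 ± 0.129 FPKM, and its relative Atg16l2 had 2.76 ± 0.226 and 2.95 ± 0.0569. Atg16l1 holds the small RNA gene Scarna6 on its own strand, and Atg16l2 shares 21372 bp with Fchsd2 on the opposite strand.

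The ATG4 proteases trim ATG8 proteins before conjugation and release them from the membrane afterwards. Atg4a, on chromosome X from 140956907 to 141164270, had 7.2, 6.92 and 7.31 FPKM in the control libraries and 6.61, 6.88 and 6.37 with metformin. The metformin libraries were all lower, by 0.04 FPKM at the closest, and the log2 fold change was -0.10 ± 0.04 (standard error, adjusted p = 0.478 in limma). Atg4b had 7.34 ± 0.339 FPKM in the control group and 7.56 ± 0.180 with metformin, and Atg4d had 4.26 ± 0.273 and 4.15 ± 0.150 (SD, n = 3 each). Atg4c was listed at 0 in 3 libraries and at no more than 0.04 FPKM in the others, below the floor. Atg4a thus made up 38.1% ± 1.29 of the FPKM of the 4 proteases in the control group and 36.1% ± 0.665 with metformin, and Atg4b 39.1% ± 0.582 and 41.3% ± 0.654. The groups did not overlap for either share, which was looked at after the values of Atg4a were seen. Of 18 shares computed within 4 families, 5 did not overlap between the groups. Shares within a family depend on each other, because a rise in 1 lowers others, so this is not a count of separate observations. In FPKM, 17.0% of all tested genes did not overlap in either direction, and no such background was computed for shares. Atg4b shares 3365 bp with Thap4 and Atg4d shares 4316 bp with Kri1, both on the opposite strand.

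In the ATG8 family the GABARAP branch was far above the LC3 branch. Gabarap had 49.7, 51.6 and 50.9 FPKM in the control libraries and 55.4, 52.9 and 49.1 with metformin, so its groups overlapped. Gabarapl1 had 48.1, 48.4 and 46.8 FPKM in the control libraries and 46.4, 47.3 and 45.8 with metformin, which overlapped too. Gabarapl2, known as GATE-16, had 16.4 ± 0.985 and 16.6 ± 0.286 FPKM (SD, n = 3 each). Map1lc3b, the LC3 gene whose lipid-joined product is the usual marker of autophagosomes, had 7.82, 7.92 and 7.69 FPKM in the control libraries and 8.09, 8.45 and 8.22 with metformin. Its metformin libraries were all above the control range, and in limma the log2 difference was 0.07 ± 0.04 (standard error) with an adjusted p = 0.526. Map1lc3a was listed at 0 in 4 libraries and at 0.06 FPKM in 1 library of each group, below the floor.

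The order Gabarap, Gabarapl1, Gabarapl2, Map1lc3b and Map1lc3a was the same in 6 of 6 libraries, and no neighbours overlapped in their range over the libraries. Map1lc3b made up 6.37% ± 0.0642 of the summed FPKM of the family in the control group and 6.67% ± 0.232 with metformin (SD, n = 3 each). The groups overlapped in this share, as control repeat 2 lay above metformin repeat 1. Gabarapl1 made up 38.9% ± 0.501 and 37.6% ± 0.730, without overlap, and is 1 of the 5 shares of 18 counted above. The summed FPKM of the family was 123 ± 0.577 in the control group and 124 ± 3.32 with metformin. Members of this family are alike in sequence, and a fragment that fits more than 1 of them, or a processed copy elsewhere in the genome, could have been counted in either or dropped, which makes the levels of single members uncertain.

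**Figure D4:**
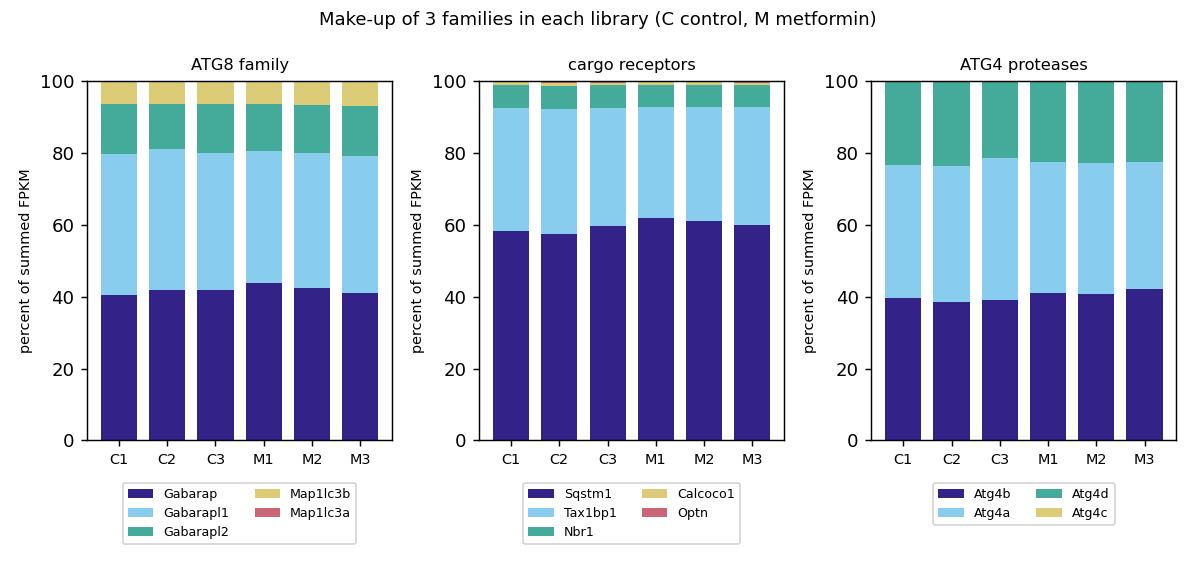
Share of each gene in the summed FPKM of the ATG8 family, the cargo receptors and the ATG4 proteases, in percent, with 1 bar per library (C control, M metformin, repeats 1 to 3). Gabarap and Gabarapl1 fill most of the first panel, Sqstm1 and Tax1bp1 most of the second, and the make-up of the bars differs little between the groups.

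Of the 4 listed genes of mitophagy, the removal of mitochondria, none was past the adjusted threshold in limma or had groups that did not overlap. Of all tested genes, 0.0281% were past that threshold and 17.0% had groups that did not overlap, in either direction. Bnip3, a receptor in the outer mitochondrial membrane that is known to respond to low oxygen, had 33.8 ± 1.64 FPKM in the control group and 32.9 ± 1.59 with metformin (SD, n = 3 each). Its relative Bnip3l, also called NIX and known for clearing mitochondria from maturing red blood cells, had 16.0 ± 0.620 and 15.5 ± 0.940 FPKM. Fundc1, the third receptor in that membrane, had 14.5 ± 0.627 and 14.3 ± 0.425 FPKM. Bnip3 was the higher of the receptors in each library, whereas Bnip3l and Fundc1 overlapped in their ranges. Pink1, the kinase that marks damaged mitochondria for removal, had 5.84 ± 0.668 and 6.07 ± 0.163 FPKM. The 95% intervals of the 4 genes together spanned -0.16 to 0.23 on the log2 scale.

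**Figure D5:**
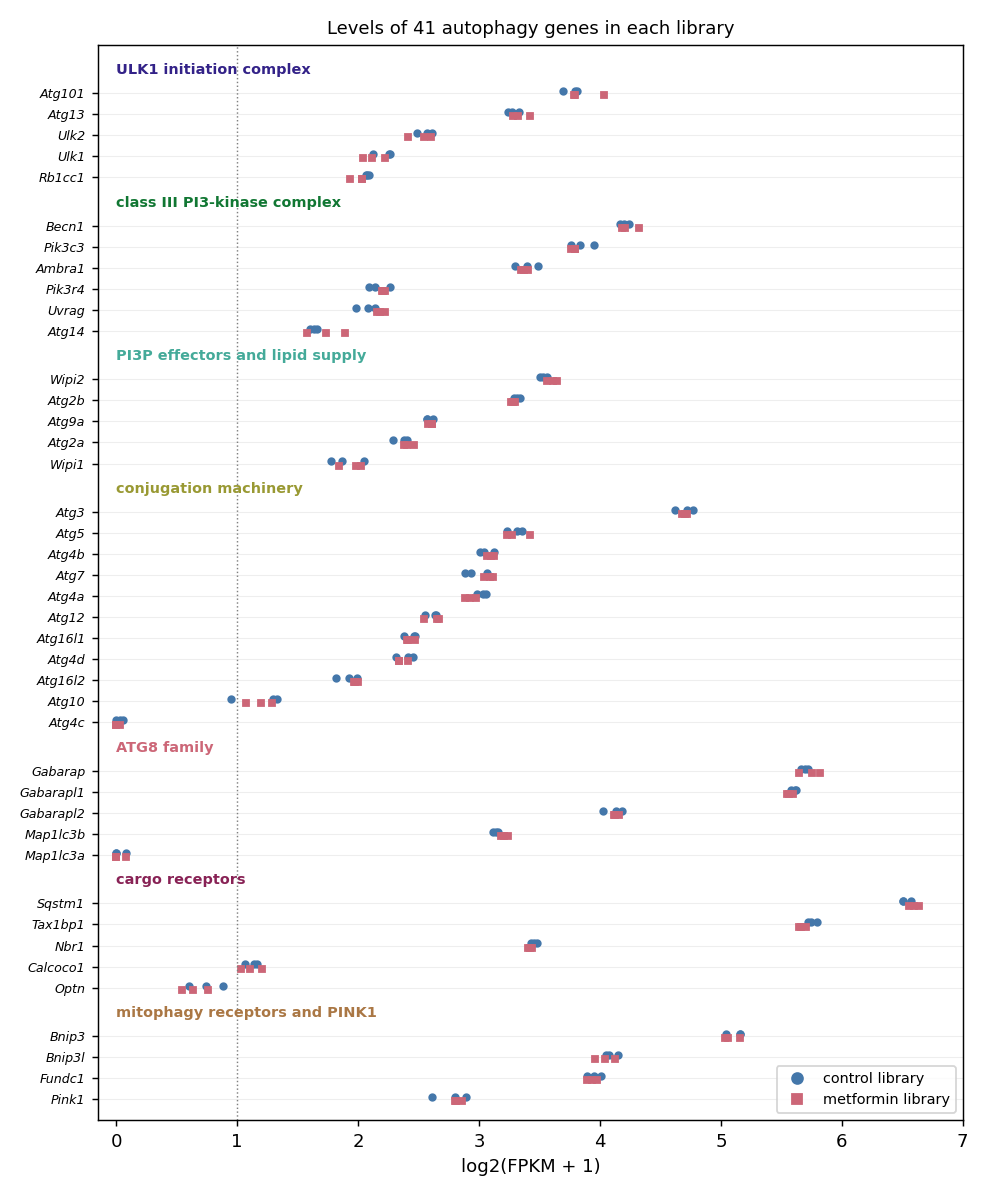
Level of each of the 41 autophagy genes in each library, as log2(FPKM + 1), grouped by role and ordered by mean within a group; circles are control libraries, squares metformin libraries, and the dotted line marks 1 FPKM. Circles and squares of a gene lie close together, whereas levels between genes range from Map1lc3a and Atg4c near 0 to Sqstm1 above 6.

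The level of a tested autophagy gene was typical of the genes tested. The median of their mean FPKM was 7.74, at percentile 44.2 of the 10661 tested genes, whose own median was 9.35. Sqstm1, Gabarap, Tax1bp1 and Gabarapl1 stood at the top, at percentiles from 88.2 to 94.99. Other receptors and ATG8 genes were lower, with Gabarapl2 at percentile 67.1, Nbr1 at 51.6 and Map1lc3b at 45.2. Calcoco1, Atg10 and Atg14 were at the bottom of the tested genes of the list, at percentile 13.6 or below. Optn, Map1lc3a and Atg4c were below the filter.

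Other autophagy genes outside the list of 41, written down by function from general knowledge, were counted in the same way. Of 38 such genes 34 were tested, with 16 higher, 18 lower, a median log2 fold change of -0.0080 and 0 with an adjusted p under 0.05 in limma. At an unadjusted p under 0.05, 3 of them were higher, or 8.82%, and 0 lower, against 6.03% and 4.81% of all tested genes. Phb2, which encodes a prohibitin that acts as a mitophagy receptor of the inner membrane, had 148, 146 and 148 FPKM in the control libraries and 156, 157 and 153 with metformin (log2 fold change 0.08, adjusted p = 0.337 in limma). Vps33a, a subunit of the HOPS complex that tethers autophagosomes to lysosomes, had 11.77, 12.01 and 12.09 FPKM in the control libraries and 13.4, 13.34 and 12.54 with metformin (log2 fold change 0.12, adjusted p = 0.364 in limma). Tex264, a receptor for endoplasmic reticulum, had 10.0 ± 0.21 and 10.9 ± 0.603 FPKM and a log2 fold change of 0.11 (adjusted p = 0.456 in limma). For these 3 genes no metformin library overlapped the control range, which made 3 of 34 or 8.82% above it, against 8.89% of all tested genes. Below it lay 2 of 34 or 5.88%, against 8.1% of all, namely Tmem41b with 8.10 ± 0.0493 FPKM in the control group and 7.67 ± 0.153 with metformin and Tecpr1 with 1.24 ± 0.00577 and 1.20 ± 0.0208 (SD, n = 3 each). By function, the 9 tested genes of autophagosome formation had a median of -0.01, the 13 of fusion 0.01 and the 12 further receptors -0.01.

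Promoter sequence was examined for 2 elements, and whether either has a part in the differences above was not tested. The CLEAR element, with CACGTG at its core, is bound by TFEB, a factor that drives genes of lysosomes and autophagy, and the C/EBP-ATF composite element, searched as TGATGNAA, is bound by ATF4 with a C/EBP partner. Windows of RefSeq on GRCm38.p6, from 250 bases before an annotated start to 50 after it, were at hand for 34 of the 41 genes (38 windows; not Rb1cc1, Atg12, Map1lc3a, Becn1, Pik3c3, Bnip3l and Atg16l1), and both strands were searched. CACGTG, which reads the same on both strands, lay in windows of Atg3, Atg5, Atg7, Atg14 and Bnip3, 5 of 38 windows or 13.2%, against 7.15% of the 32851 windows of all genes. With the flank of the CLEAR element, as GTCACGTG, a motif that contains the first, it was found in 3 of 38 windows, those of Atg3, Atg7 and Atg14, against 2.25% of all. TGATGNAA was found in 0 of the 38 windows, against 3.97% of all windows, and with so few windows 0 does not stand apart from that share. Among the 4 stress response genes it was found in windows of Chac1 and Trib3 but not of Atf4 or Ddit3. Of the genes listed above for ATF4 and CHOP, Atg12, Atg16l1 and Becn1 had no window. A match of letters is not a bound site, and the lack of one says only that the letters are not in this window.

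The stretches below show these matches, which are in capitals, 5′ to 3′ on the strand of the gene and all on GRCm38.p6. Those of Atg3 (2 matches, chr16:45158719-45158778, plus strand), Atg7 (chr6:114670937-114670996, plus strand), Bnip3 (chr7:138909582-138909641, minus strand) and Atg5 (chr10:44268279-44268338, plus strand) lie before the annotated start of their window. That of Atg14 (chr14:47568418-47568447, minus strand) spans the start of its window. For Atg7 and Atg14 this start lies inside the deposited span of the gene (chr6:114643097-114860614 and chr14:47540893-47570649), so it is an internal start. Chac1 (chr2:119351023-119351082, plus strand) and Trib3 (chr2:152344028-152344057, minus strand, just after the start) carry TGATGNAA on the opposite strand, so that the capitals read as its reverse complement.
Atg3: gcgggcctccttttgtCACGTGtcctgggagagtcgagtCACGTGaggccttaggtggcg
Atg7: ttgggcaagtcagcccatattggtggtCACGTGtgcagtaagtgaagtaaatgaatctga
Bnip3: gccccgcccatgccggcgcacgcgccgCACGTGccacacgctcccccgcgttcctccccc
Atg5: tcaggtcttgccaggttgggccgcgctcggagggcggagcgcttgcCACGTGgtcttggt
Atg14: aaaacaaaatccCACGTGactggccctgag
Chac1: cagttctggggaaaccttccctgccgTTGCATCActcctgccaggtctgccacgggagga
Trib3: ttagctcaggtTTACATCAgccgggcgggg

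Of the 5 autophagy genes with CACGTG, 3 were higher and 2 lower with metformin, with a median log2 fold change of 0.0098. The 27 tested genes with a window and without that motif had a median of 0.02, with 15 higher and 12 lower, and 0 of either set had an adjusted p under 0.05 in limma. Chac1, whose product breaks down glutathione, had 2.28, 2.79 and 2.49 FPKM in the control libraries and 6.57, 7.26 and 6.99 with metformin (log2 fold change 1.18, adjusted p = 0.00197 in limma).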

How the data were processed

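The 3 control and 3 metformin RNA-seq libraries were grouped by their treatment label, which also gives dose and time, and repeat numbers follow the titles. The separate protocol field names metformin on all 6 samples, controls included. The authors deposited one table of FPKM values per Ensembl gene and library, to 2 decimals, and the positions it lists are those of GRCm38. The submitters' processing notes name HISAT2 and the build mm9 without saying for which step, the labels name a stranded kit (KAPA) and the study's methods another kit (VAHTS), and whether counting used strand is not given in the sources used here. Symbols were joined by Ensembl identifier (32589 of 55401 genes), and 115 of 115 listed symbols matched, 7 of them through an older symbol. Depth was estimated from single-exon genes shorter than 400 bp, whose low values lay within 0.1 of a whole number of fragments. No test on counts was made.

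Genes that averaged 1 FPKM or more were tested as log2(FPKM + 1) with limma (version 3.58.1, R 4.3.3; lmFit, eBayes with a trend), two-sided, across all genes; p-values were adjusted by Benjamini and Hochberg and called under 0.05. The fit was tested on simulated data. Members, role groups, pathway lists, markers, tests and alternatives were chosen with earlier results of these data known. By the rule for named genes, values are given for members with an unadjusted p under 0.05 or with groups that do not overlap, for the highest and the lowest member of each role group, for every member of the ATG8, receptor and mitophagy groups, for further autophagy genes with an unadjusted p under 0.05 and for 4 stress response genes, and values in every library for the 6 members with the smallest p. The levels of the other members and the shares, ratios and promoter groups were added after values were seen. The alternatives tried were another pseudocount (0.1), a filter at 10 FPKM or none, TPM, quantile or median scaling, no trend, a replicate block and each library left out. Figures were drawn with matplotlib 3.10.9.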

Additional observations from a re-analysis of the deposited data

How the results depend on the processing

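Under each of the 14 alternatives, 0 of the tested autophagy genes, of the 41 or of the 38 further ones, had an adjusted p under 0.05, and the lowest adjusted p among the 41 ranged from 0.275 to 0.587 (limma). The 8 autophagy genes with a printed log2 fold change kept its direction wherever they were tested, and it was -0.04 for Rb1cc1 without metformin repeat 3 and 0.07 for Uvrag without control repeat 2. The median log2 fold change stayed between -0.0060 and 0.02. The count of the 41 genes higher at an unadjusted p under 0.05, where Sqstm1 was the 1 gene, was 0 with no filter, with rescaling to TPM, with centring on the median, with no trend and with the replicate block. The count of further genes lower at that threshold was 1 with no filter. Groups that did not overlap numbered 1 higher and 1 lower among the 13 autophagy genes of at least 10 FPKM, where fewer genes were tested. With rescaling to TPM they numbered 2 higher and 5 lower. Over all tested genes, 21.3% did not overlap at that filter and 17.1% with TPM, both directions together. Leaving out 1 library gave 3 to 7 autophagy genes higher and 4 to 7 lower with groups that did not overlap. The share of all tested genes that did so was then 26.7% to 27.7%, both directions together. At an unadjusted p under 0.05, leaving out 1 library gave 0 to 2 autophagy genes higher and 0 to 1 lower, and 0 to 1 further genes lower. Sqstm1 was past that threshold without control repeat 3 or metformin repeat 3 but not without any other library, and Tax1bp1, the gene counted as lower, was not past it with no trend or without control repeat 2, metformin repeat 1 or metformin repeat 2. With the replicate block the adjusted p of Ddit3 was 0.0833 at a log2 fold change of 0.74, and the block changed no other adjusted call among the named genes. Same-numbered libraries had correlations of -0.0317, 0.0181 and 0.0479 in their deviations from the group means, so the numbers were not taken to pair them. With 3 libraries a group and no counts, small changes could be missed. The printed intervals are not adjusted for the number of genes and do not set the limit of detection. Atf4, with a 95% interval of 0.11 to 0.25, had an adjusted p of 0.243 in limma.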
